A study of Mus musculus and Homo sapiens with 34 samples.

Results

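The comparison described here sets HT29 spheroids grown with SIS ECM against HT29 spheroids grown without it, over all 12 human libraries of a series of 34. HT29 is an established human colorectal carcinoma line. SIS ECM is the decellularised extracellular matrix of small intestinal submucosa, used as a biomaterial, and the spheroids that hold it are called MatriSpheres. Members were taken by their column names alone: SIS ECM libraries 1 to 6 against cells-alone libraries 1 to 6, with no further term in the fit. No measured value entered that choice. Both groups shared the line, the serum-supplemented RPMI medium, the ultra-low attachment plates with U-shaped wells and the 7 days of culture. By the labels they differed only in the added matrix, and nothing was added in its place for cells alone. Each library was made from polyadenylated RNA of 10 pooled spheroids. The labels do not say whether the 6 libraries of a group came from separate cultures, so each p-value speaks only of variation among these libraries, and that variation may be technical. The other 22 libraries, from the mouse colorectal carcinoma lines CT26 and MC38, enter below only to show where HT29 responded differently.

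Cells in a spheroid have no plastic to attach to and hold one another through cadherins and junctions, while a matrix offers ligands for integrins and other receptors. Type I interferons act through transcription factors that include STAT2 and IRF9 to switch on antiviral effectors, which include the APOBEC3 enzymes, and they raise the machinery that shows peptides on MHC class I. Colon carcinoma lines keep parts of the intestinal programme, in which Wnt signals and SOX9 mark crypt cells, and HNF4A drives the products of absorptive and secretory cells. Cholesterol synthesis is set by SREBP2, which is held back when sterols are plentiful, whereas the LXR receptors raise cholesterol export.

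The libraries held 25515239 to 37001506 counts, and 15207 genes had counts high enough to be tested. The colon epithelial identity of the cells showed in 12 of 12 listed epithelial markers with counts, with a summed level of 9356 to 10300 CPM (counts scaled to library size) in cells alone and 8760 to 10070 with SIS ECM. Of 14 fibroblast markers 12 had any count, and their sum stayed at 0.772 to 1.83 CPM in cells alone and 0.785 to 1.66 with SIS ECM, with C7 and DPT at 0. The 11 endothelial markers summed to 0.304 to 0.546 and 0.298 to 0.621 CPM, with KDR, FLT1, EMCN and CLDN5 at 0. The 8 smooth muscle markers summed to 12.8 to 15.5 and 9.65 to 13.4 CPM, most of it TAGLN, with ACTG2 and LMOD1 at 0. Of the 14 leukocyte markers MS4A1 and NKG7 were at 0, and the sum of 1880 to 2045 and 1778 to 2049 CPM was nearly all LYZ, which epithelial cells also make. CDX2, an intestinal homeobox factor, was low in these cells (1.86 ± 0.37 CPM in cells alone and 1.84 ± 0.27 with SIS ECM, mean ± SD, n = 6).

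The 6 SIS ECM libraries were not alike. The share of counts from mitochondrially encoded genes was 6.15 to 6.80% in cells alone, and SIS ECM libraries 1 (6.60%) and 4 (6.89%) lay at that level. SIS ECM libraries 2, 3, 5 and 6 lay below it, at 5.46, 5.33, 5.39 and 5.80%. On the first principal component, which carried 22.4% of the variance, all cells-alone libraries fell between −16.97 and −7.43 and the SIS ECM libraries between −0.22 (library 1) and 26.13 (library 2), so the groups did not overlap. For some lists the count without SIS ECM libraries 1 and 4, an alternative chosen after the data were seen, is given below beside the count over all libraries. In that setting calls over all genes also went up, from 1178 to 1818 higher and from 880 to 1799 lower. A larger count there is therefore not particular to a list.

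SIS ECM changed many genes by small amounts. Of the 15207 genes tested, 2058 (13.5%) passed an adjusted p of 0.05 in edgeR's quasi-likelihood test, 1178 (7.75%) of them higher and 880 (5.79%) lower with SIS ECM. The median absolute log2 fold change was 0.29 among the genes that rose and 0.23 among those that fell, and the median over all tested genes was −0.005. At 2-fold or more the change was lopsided, with 45 genes higher and 8 lower, and 36 of these genes lay among the 3802 genes of lowest expression. The groups did not overlap for 554 genes that were higher with SIS ECM in every library (3.64%) and for 417 that were lower (2.74%). Without SIS ECM libraries 1 and 4 the number of changed genes was 3617, of which 1818 were higher and 1799 lower, so the excess of rises was no longer seen. In bulk RNA, fewer cells in a given state and less RNA per cell cannot be told apart, and this holds for every change below.

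**Figure D1:**
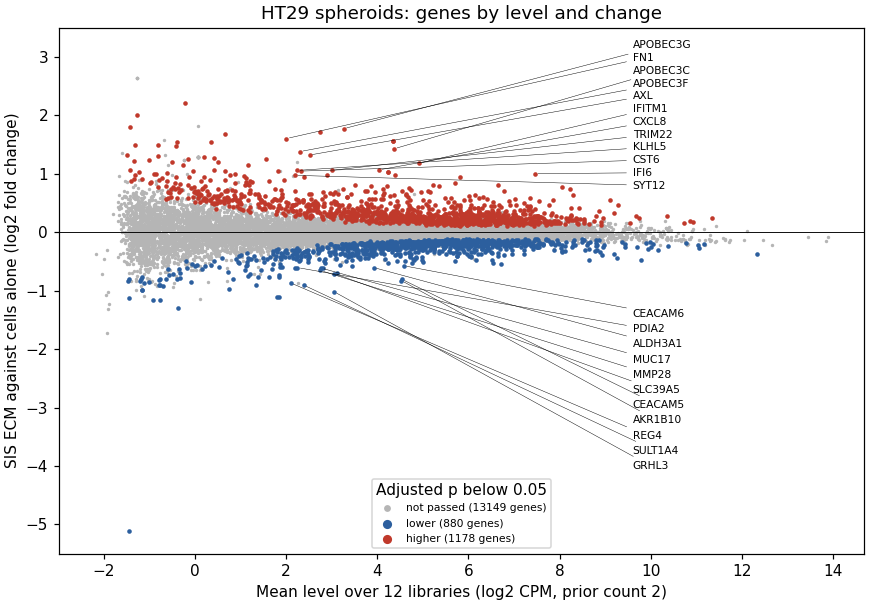
Each point is 1 of 15207 genes, by mean level over the 12 libraries (log2 CPM) and log2 fold change of SIS ECM against cells alone. Red points rose (1178), blue points fell (880) and grey points did not pass, and the 23 labelled genes are among those with the largest changes among well-expressed genes whose groups did not overlap.

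Among the lists examined, antiviral effectors had the largest share of members that rose. Of 40 listed interferon effectors, all tested, 38 rose and none fell, with a median log2 fold change of 0.56, against 7.75% of all tested genes that rose and a median of −0.005. In 34 of the 40 the groups did not overlap, against 3.64% of all genes that were higher in every SIS ECM library. IFITM1, a membrane protein that blocks viral entry, ran from 15.6 through a median of 19.6 to 24.8 CPM in cells alone and from 41.2 through 46.3 to 49.4 CPM with SIS ECM. The ranges were apart, and the rise was 2.27-fold (log2 fold change 1.18 ± 0.08, SE; adjusted p = 5.42e-08). IFI6, an endoplasmic reticulum protein that restricts flaviviruses, stood at 98.0 to 136 CPM (median 129) in cells alone and at 232 to 290.0 CPM (median 244) with SIS ECM, again without overlap (1.00 ± 0.07, adjusted p = 1.28e-07).

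TRIM22, an antiviral ubiquitin ligase, rose from 4.18 to 6.44 CPM (median 5.87) to 9.20 to 13.4 CPM (median 11.7), a log2 fold change of 1.06 ± 0.11 (adjusted p = 8.63e-06). IFI27, a mitochondrial protein, rose from 209 to 262 CPM (median 228) to 351 to 435 CPM (median 382; 0.74 ± 0.06, adjusted p = 5.31e-07). In both genes every SIS ECM library exceeded every cells-alone library. IFI44L and the entry inhibitor IFITM3 rose by 0.94 ± 0.08 and 0.84 ± 0.08 on the log2 scale. The exonuclease gene ISG20 (−0.07 ± 0.06, adjusted p = 0.489) and the ISG15 ligase gene HERC5 (0.24 ± 0.10, adjusted p = 0.124) were the 2 that did not pass. The list's level per library, the mean log2 CPM of its members relative to cells alone, was 0.41 and 0.44 in SIS ECM libraries 1 and 4 and 0.52 to 0.70 in the other 4, so the 2 libraries with a cells-alone mitochondrial share were also the lowest here. Without them 37 of the 40 passed, with a median of 0.63.

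The APOBEC3 cytidine deaminases mutate the DNA copies of retroviruses and retroelements. They held the largest rise among genes whose log2 CPM averaged 2 or more and whose groups did not overlap. Of 7 listed members 4 were tested and 3 rose (75%, against 7.75% of all genes tested). APOBEC3G (ENSG00000239713.9) ran from 4.70 through 5.10 to 5.66 CPM in cells alone and from 14.8 through 17.5 to 20.7 CPM with SIS ECM. Its lowest SIS ECM library lay far above its highest cells-alone library, and the rise was 3.42-fold (1.77 ± 0.08, adjusted p = 1.83e-10). APOBEC3C (ENSG00000244509.4) had the smallest adjusted p of all genes tested, 4.51e-11, and moved from 12.2 to 13.0 CPM (median 12.6) to 31.2 to 39.5 CPM (median 33.1), 2.69-fold.

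APOBEC3F moved from 2.30 to 3.38 CPM (median 3.15) to 6.49 to 9.20 CPM (median 7.995), a log2 fold change of 1.38 ± 0.10 (adjusted p = 1.22e-07). For these 3 genes the groups lay far apart in every library. APOBEC3B, the nuclear member often expressed in carcinomas, did not follow. It stood at 8.47 to 12.3 CPM (median 10.8) in cells alone and 10.4 to 13.4 CPM (median 11.7) with SIS ECM, ranges that overlap, with a log2 fold change of 0.13 ± 0.09 (adjusted p = 0.338). APOBEC3, IFITM and HLA genes each have close relatives, so part of their reads could be divided between members by the authors' counting.

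Factors that carry the interferon signal moved less than their targets. Of 20 tested receptors and regulators 4 rose (20%, against 7.75% of all genes tested) and none fell, and the list's median was 0.01. IRF7, which amplifies the response, rose by 0.35 ± 0.06 and IRF9, the DNA-binding partner of STAT2, by 0.22 ± 0.05. STAT2 (0.19 ± 0.06, adjusted p = 0.057), IRF1 (0.15 ± 0.08, adjusted p = 0.219) and the kinase gene JAK1 (−0.13 ± 0.05, adjusted p = 0.0628) did not pass. The interferon-gamma receptor chain IFNGR2 (0.13 ± 0.04, adjusted p = 0.0414), lost its call when any of 9 single libraries was left out (adjusted p up to 0.0881).

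Among cytosolic sensors of foreign nucleic acid 7 of 12 tested rose (58.3%, against 7.75% of all genes tested) and none fell (median 0.24). DDX58, which encodes the RNA sensor RIG-I, rose from 57.6 to 69.5 CPM (median 67.3) to 85.0 to 111 CPM (median 99.3; 0.60 ± 0.07, adjusted p = 1.33e-05), with no overlap. IFIH1, the gene of the second RNA helicase sensor MDA5, rose by 0.51 ± 0.07, and TMEM173, the gene of the DNA-signalling adaptor STING, by 0.23 ± 0.05. The RNA-signalling adaptor gene MAVS did not pass (−0.05 ± 0.06, adjusted p = 0.654). Of 5 tested interferon-inducible GTPases GBP4 (0.68 ± 0.09) and GBP1 (0.55 ± 0.12) rose (40% of the list). GBP2 (0.15 ± 0.05, adjusted p = 0.0589) and GBP3 (0.03 ± 0.05, adjusted p = 0.804) did not pass. The level of the sensors was 0.13 and 0.14 in SIS ECM libraries 1 and 4 and 0.23 to 0.40 in the other 4, and that of the GTPases 0.02 and 0.17 against 0.31 to 0.37. Without those 2 libraries 8 sensors and 2 GTPases rose.

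MHC class I presentation rose in 12 of 20 tested members (60%, against 7.75% of all genes tested) and fell in 1, with a median of 0.18. TAP1, a subunit of the transporter that carries peptides to MHC class I, ran from 25.2 through 29.9 to 31.3 CPM in cells alone and from 36.6 through 42.0 to 47.5 CPM with SIS ECM (0.53 ± 0.07, adjusted p = 3.72e-05). HLA-B, a classical class I heavy chain, ran from 36.0 through 43.0 to 45.4 and from 52.0 through 59.1 to 63.7 CPM (0.46 ± 0.06, adjusted p = 3.86e-05). B2M, the shared light chain, stood at 689 to 803 CPM (median 736) and at 838 to 964 CPM (median 909; 0.28 ± 0.05, adjusted p = 0.0013). None of the 3 genes had overlapping groups, and the light chain had the smallest log2 fold change.

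The immunoproteasome subunit gene PSMB9 rose by 0.38 ± 0.08 and the peptide-loading bridge TAPBP by 0.29 ± 0.06. PSME1, a proteasome activator (0.01 ± 0.06, adjusted p = 0.946), and CALR, a folding chaperone (−0.10 ± 0.05, adjusted p = 0.18), did not pass. NLRC5, the transactivator of class I genes, had a log2 fold change of 0.49 ± 0.16 and an adjusted p of 0.0552. The member that fell was PDIA3 (−0.18), a disulfide isomerase of the peptide-loading complex and of the endoplasmic reticulum at large.

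**Figure D2:**
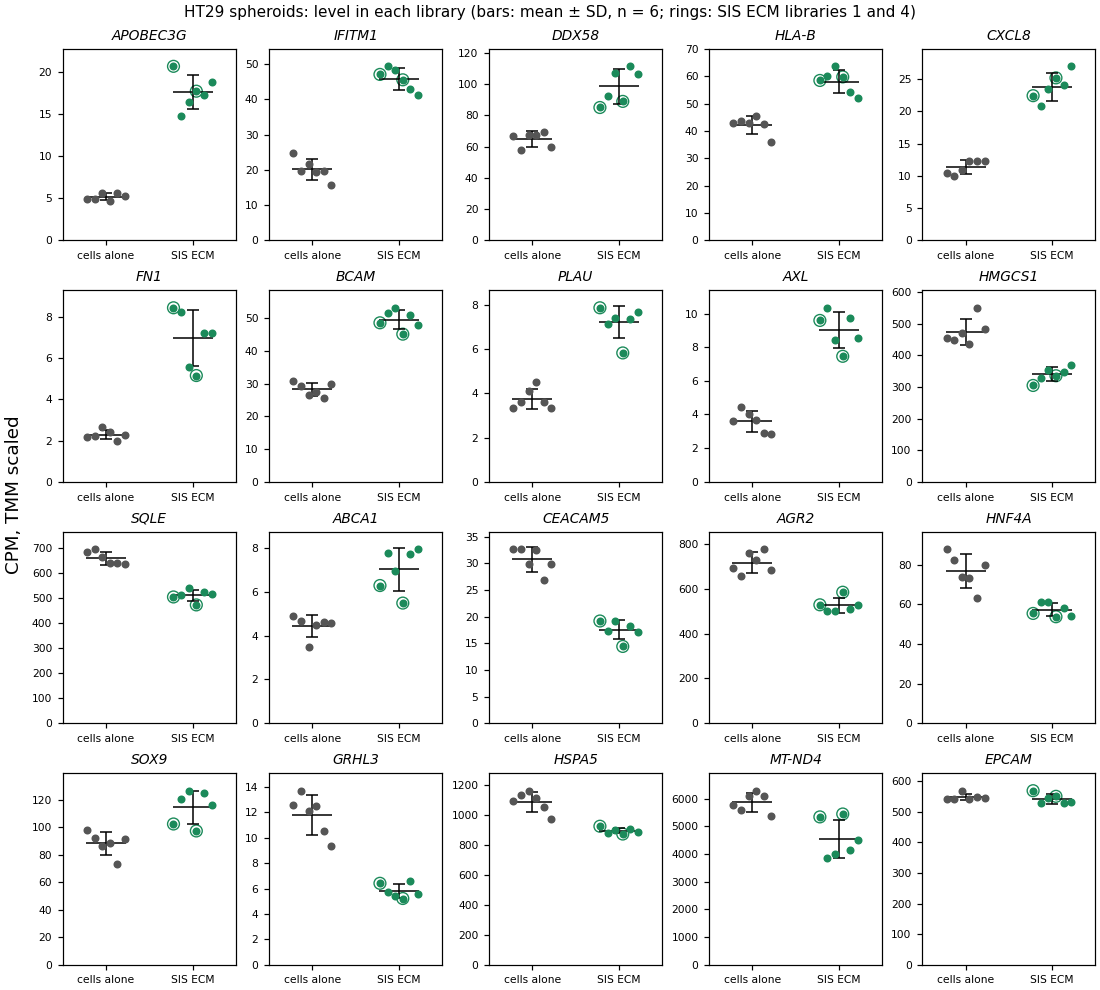
CPM of 20 genes in each of the 12 libraries, with cells alone in grey and SIS ECM in green, bars giving the mean ± SD (n = 6) and rings marking SIS ECM libraries 1 and 4. The groups are apart for APOBEC3G (4.70 to 5.66 against 14.8 to 20.7 CPM) and for most other genes drawn, overlap for SOX9, MT-ND4 and EPCAM, and the ringed libraries are the highest of the SIS ECM group for MT-ND4.

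Secreted signals rose in part. Of 22 tested chemokines and cytokines 10 rose (45.5%, against 7.75% of all genes tested) and 1 fell (median 0.35). CXCL8, the neutrophil attractant, ran from 9.90 through 11.6 to 12.4 CPM in cells alone and from 20.8 through 23.8 to 27.0 CPM with SIS ECM, a 2.10-fold rise without overlap (1.07 ± 0.07, adjusted p = 3.82e-08). CXCL10, the interferon-induced T cell attractant, was scarce in both cultures and rose from 1.41 to 2.45 CPM (median 1.77) to 3.54 to 5.51 CPM (median 4.31; 1.26 ± 0.14, adjusted p = 1.34e-05). CXCL1, a second neutrophil attractant, rose by 1.15 ± 0.12 and the death ligand TNFSF10 by 0.44 ± 0.06. CCL15 went the other way, from 20.5 to 24.7 CPM (median 23.0) to 14.4 to 17.9 CPM (median 15.4; −0.52 ± 0.06, adjusted p = 2.79e-05), again without overlap. IL18 (0.07 ± 0.08, adjusted p = 0.61) and LIF (−0.04 ± 0.05, adjusted p = 0.633) did not pass.

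Of 19 tested NF-kB factors and feedback genes 7 rose (36.8%, against 7.75% of all genes tested) and none fell (median 0.15). Without SIS ECM libraries 1 and 4 the count was 11, where rises over all genes went from 1178 to 1818. BIRC3, an inhibitor of apoptosis and NF-kB target, rose by 0.56 ± 0.06, TNFAIP2 by 0.37 ± 0.06 and RELB, a subunit of the noncanonical pathway, by 0.34 ± 0.06. RELA (0.05 ± 0.06, adjusted p = 0.623) and NFKB1 (0.15 ± 0.05, adjusted p = 0.0778), the subunits of the canonical dimer, did not pass. Among 19 tested immune ligands and complement genes 4 rose (21.1%), led by the complement component C3 at low level (0.82 ± 0.19 to 2.00 ± 0.20 CPM, mean ± SD, n = 6; log2 fold change 1.28 ± 0.16), with complement factor B, CFB (0.35 ± 0.08). The 1 that fell, TNFRSF14 (−0.15 ± 0.05, adjusted p = 0.0427), lost its call when any of 9 single libraries was left out (adjusted p up to 0.107).

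Matrix genes of the cells themselves changed in single members. FN1 (ENSG00000115414.19), the gene of the adhesive glycoprotein fibronectin, ran from 1.98 through 2.25 to 2.66 CPM in cells alone and from 5.15 through 7.21 to 8.43 CPM with SIS ECM. It rose 3.04-fold without overlap (1.60 ± 0.12, adjusted p = 3.16e-07), from a low level in both cultures. TGFBI, an integrin-binding matrix protein, rose from 92.3 to 114 CPM (median 102) to 128 to 166 CPM (median 138; 0.47 ± 0.06, adjusted p = 9.97e-05). The glycoprotein tenascin C, TNC (0.66 ± 0.12), and the glypican GPC1 (0.28 ± 0.05) rose, and CCN2, a matricellular YAP target, fell (−0.58 ± 0.13). In all 5 of 18 tested glycoproteins and proteoglycans rose (27.8%, against 7.75% of all genes tested) and 1 fell (median 0.13). SDC1, a syndecan, did not pass (−0.03 ± 0.04, adjusted p = 0.682).

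Of 11 tested collagens outside the basement membrane 5 rose (45.5%, against 7.75% of all genes tested) and none fell (median 0.31). COL16A1, which encodes a fibril-associated chain, stood at 39.9 to 48.2 CPM (median 42.1) in cells alone and at 55.6 to 64.5 CPM (median 61.5) with SIS ECM (0.52 ± 0.05, adjusted p = 2.03e-06), without overlap. COL9A3 rose by 0.57 ± 0.06 and COL13A1, a transmembrane collagen at low level, by 1.00 ± 0.14. COL17A1, the hemidesmosomal collagen, did not pass (0.05 ± 0.06, adjusted p = 0.58). COL1A1, the main fibroblast collagen and the 1 fibroblast marker with enough counts to be tested, stayed near 1 CPM (0.13 ± 0.20, adjusted p = 0.731). Of 11 tested basement membrane genes the heparan sulfate proteoglycan AGRN rose (0.28 ± 0.08, adjusted p = 0.0267) and COL4A2 fell (−0.40 ± 0.10). That was 9.09% of the list each way, near the shares over all genes tested (7.75% and 5.79%). The call for AGRN was lost when any of 5 single libraries was left out. Without SIS ECM libraries 1 and 4 together 4 members rose, where rises over all genes went from 1178 to 1818.

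Receptors for matrix rose in 6 of 18 tested members (33.3%, against 7.75% of all genes tested) and fell in 1. BCAM, a receptor for laminin alpha 5 chains, ran from 25.7 through 28.3 to 30.9 CPM in cells alone and from 45.1 through 49.8 to 53.2 CPM with SIS ECM, the clearest change of the list (0.81 ± 0.05, adjusted p = 3.82e-08, no overlap). The integrin chains ITGB8 (0.47 ± 0.08), ITGB6 (0.35 ± 0.05) and ITGA2 (0.21 ± 0.04) rose, which bind latent TGF-beta (ITGB8 and ITGB6) and collagen (ITGA2). ITGB7, a chain best known from lymphocytes, fell by 0.38 on the log2 scale. ITGB1, the shared beta chain of most matrix integrins, did not pass (0.03 ± 0.04, adjusted p = 0.672), nor did the focal adhesion kinase gene PTK2 (0.02 ± 0.04, adjusted p = 0.807).

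Proteases that cut matrix changed in both directions. MMP7, the epithelial matrilysin, stood at 98.2 to 115 CPM (median 109) in cells alone and at 148 to 175 CPM (median 157) with SIS ECM (0.57 ± 0.06, adjusted p = 2.70e-06). MMP28, the epilysin of quiescent epithelium, fell from 7.82 to 9.81 CPM (median 8.17) to 4.63 to 6.32 CPM (median 5.08; −0.65 ± 0.09, adjusted p = 8.61e-05). Both genes had groups that did not overlap. Over the list of metalloproteinases and their inhibitors 5 of 15 tested rose (33.3%, against 7.75% of all genes tested) and 1 fell (median 0.14). Leaving out 1 library gave 2 to 6 that rose, with 2 on omission of library 6 of cells alone or of SIS ECM library 2, 3 or 5 and 3 on omission of library 3 of cells alone or of SIS ECM library 6, and TIMP2 and MMP14 each lost the call in 6 omissions (adjusted p up to 0.079). ADAM10, the main constitutive sheddase, did not pass (0.12 ± 0.04, adjusted p = 0.072).

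The plasminogen system converts plasminogen to plasmin, which degrades fibrin and matrix. In it 3 of 10 tested members rose (30%, against 7.75% of all genes tested) and 2 fell (20%, against 5.79%). PLAT, the tissue-type activator, was scarce in cells alone (0.188 to 0.503 CPM, median 0.389) and reached 1.19 to 2.69 CPM (median 1.62) with SIS ECM, a log2 fold change of 2.20 ± 0.23 (adjusted p = 5.76e-06). PLAU, the urokinase-type activator, ran from 3.32 through 3.60 to 4.50 and from 5.82 through 7.37 to 7.86 CPM (0.94 ± 0.09, adjusted p = 3.16e-06). The groups were apart for both activators.

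SERPINE2, an inhibitor of serine proteases, fell from 51.0 to 53.1 CPM (median 52.1) to 38.0 to 43.0 CPM (median 39.8; −0.37 ± 0.04, adjusted p = 4.35e-06), with 6 closely spaced cells-alone libraries. Its groups did not overlap. S100A10, a plasminogen-binding cell surface protein, fell (−0.33 ± 0.05), and its partner ANXA2 did not pass (−0.13 ± 0.06, adjusted p = 0.124). The urokinase receptor gene PLAUR had a log2 fold change of 0.02 ± 0.06 (adjusted p = 0.83). The list's median log2 fold change was −0.03, whereas its mean level was 0.19 to 0.44 in the SIS ECM libraries. Without SIS ECM libraries 1 and 4, 4 members fell, where falls over all genes went from 880 to 1799.

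AXL, a receptor tyrosine kinase of the TAM family, and its ligand GAS6 rose together. AXL ran from 2.86 through 3.63 to 4.45 CPM in cells alone and from 7.46 through 9.06 to 10.3 CPM with SIS ECM (2.50-fold, 1.32 ± 0.11, adjusted p = 5.09e-07), and GAS6 from 2.20 through 2.54 to 2.84 and from 3.88 through 4.09 to 4.84 CPM (0.74 ± 0.10, adjusted p = 6.27e-05). PROS1, the second ligand of the family, fell (−0.26 ± 0.04). The list of both receptor families was split, with 4 of 16 tested members higher (25%), 3 lower (18.8%) and a median of 0.01. Over all genes tested 7.75% rose and 5.79% fell. Leaving out 1 library gave 2 to 5 higher (2 on omission of library 3 of cells alone or of SIS ECM library 3 or 6). Among the ligands of the EGF receptor AREG went from 103 to 123 CPM (median 110) to 70.9 to 83.1 CPM (median 77.5; −0.52 ± 0.05, adjusted p = 2.12e-06), and HBEGF fell as well (−0.52 ± 0.08). Of the other ligands TGFA rose (0.13 ± 0.04, adjusted p = 0.0378), and EREG (0.02 ± 0.06, adjusted p = 0.902) and BTC (0.07 ± 0.07, adjusted p = 0.541) did not pass; these 3 were chosen after their values were seen. The groups did not overlap for AXL, GAS6, PROS1, AREG, HBEGF and TGFA. The receptor genes MET (−0.00 ± 0.04, adjusted p = 0.963) and ERBB3 (−0.07 ± 0.06, adjusted p = 0.461) did not pass.

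In the list of mesenchymal genes 3 of 10 tested rose (30%, against 7.75% of all genes tested) and 2 fell (20%, against 5.79%), with a median of 0.32. Besides AXL, the caveolar coat gene CAV1 rose (0.92 ± 0.16). Contractile genes went both ways, as TPM1 (−0.23 ± 0.04) and TAGLN (−0.36 ± 0.09) fell and smooth muscle actin, ACTA2, rose (0.49 ± 0.15, adjusted p = 0.0324), a call lost when any of 7 single libraries was left out (adjusted p up to 0.0768). VIM, the mesenchymal intermediate filament, was nearly absent, at 0.27 ± 0.09 CPM in cells alone and 0.42 ± 0.11 CPM with SIS ECM (mean ± SD, n = 6; adjusted p = 0.121). Of 24 tested TGF-beta and YAP genes 6 rose (25%) and 1 fell. Without SIS ECM libraries 1 and 4 the count of rises was 12, where rises over all genes went from 1178 to 1818. Single omissions gave 2 (without SIS ECM library 2) to 11 (without SIS ECM library 1), with 3 and 10 without SIS ECM libraries 3 and 4. YAP1 itself, the coactivator of TEAD factors, rose by 0.27 ± 0.05, and the fall was that of CCN2.

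Cholesterol synthesis fell as a pathway in count: 19 of 21 tested enzymes were lower, none was higher, and the median was −0.26, against 5.79% of all tested genes that fell. HMGCS1, the enzyme that makes HMG-CoA, ran from 435 through 462 to 550.2 CPM in cells alone and from 305 through 342 to 369 CPM with SIS ECM (−0.48 ± 0.06, adjusted p = 2.79e-05). MVD, the last decarboxylase of the mevalonate branch, ran from 68.7 through 70.4 to 75.9 and from 51.4 through 54.8 to 58.5 CPM (−0.38 ± 0.04, adjusted p = 1.27e-05). SQLE, which makes the sterol precursor squalene epoxide, ran from 638 through 653 to 697 and from 474 through 514 to 541 CPM (−0.37 ± 0.04, adjusted p = 1.93e-05). The groups were apart for the 3 enzymes, as they were for 14 of the 21, against 2.74% of all genes that were lower in every SIS ECM library.

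HSD17B7 (−0.41 ± 0.05) and EBP (−0.37 ± 0.05), enzymes of the late pathway, fell by like amounts. PMVK (−0.08 ± 0.04, adjusted p = 0.26) and GGPS1, which leads to geranylgeranyl groups rather than sterols (−0.05 ± 0.04, adjusted p = 0.461), did not pass. The list's level per library was −0.24 to −0.31 in the SIS ECM libraries and −0.02 to 0.04 in cells alone, and SIS ECM libraries 1 and 4 (−0.26 and −0.24) stood with the rest. Without these 2 libraries 19 enzymes were again lower. Of 14 tested genes of sterol regulation and uptake 2 fell (14.3%, against 5.79% of all genes tested) and 1 rose (7.14%, against 7.75%). The other 11 did not pass, the median was −0.027, and the list's level overlapped between cultures. INSIG1, which retains SREBP2 in the endoplasmic reticulum and is itself an SREBP target, fell from 273 to 312 CPM (median 303) to 227 to 258 CPM (median 234; −0.32 ± 0.05, adjusted p = 0.000133), without overlap.

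The genes of the SREBP factors themselves, SREBF2 (0.04 ± 0.07, adjusted p = 0.724) and SREBF1 (0.11 ± 0.07, adjusted p = 0.345), did not pass. Of 20 tested genes of fatty acid synthesis and storage 3 fell (15%, against 5.79% of all genes tested). The acetyl-CoA synthetase ACSS2 (−0.54 ± 0.05) and the acyl-CoA synthetase ACSL1 (−0.31 ± 0.05) led these falls. FASN (0.05 ± 0.08, adjusted p = 0.705) and SCD (−0.17 ± 0.06, adjusted p = 0.0836) did not pass.

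Cholesterol exporters rose while the enzymes fell. ABCA1 stood at 3.46 to 4.89 CPM (median 4.59) in cells alone and at 5.48 to 7.94 CPM (median 7.34) with SIS ECM (0.66 ± 0.10, adjusted p = 0.000297), and the groups did not overlap. ABCG1 rose by 0.42 ± 0.08, and APOE, the lipid carrier, by 0.79 ± 0.20 from 0.86 ± 0.27 CPM (mean ± SD, n = 6). These 3 were the members that rose among 7 tested (42.9%, against 7.75% of all genes tested), and none fell. The LXR gene NR1H3 did not pass (0.06 ± 0.03, adjusted p = 0.248).

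**Figure D3:**
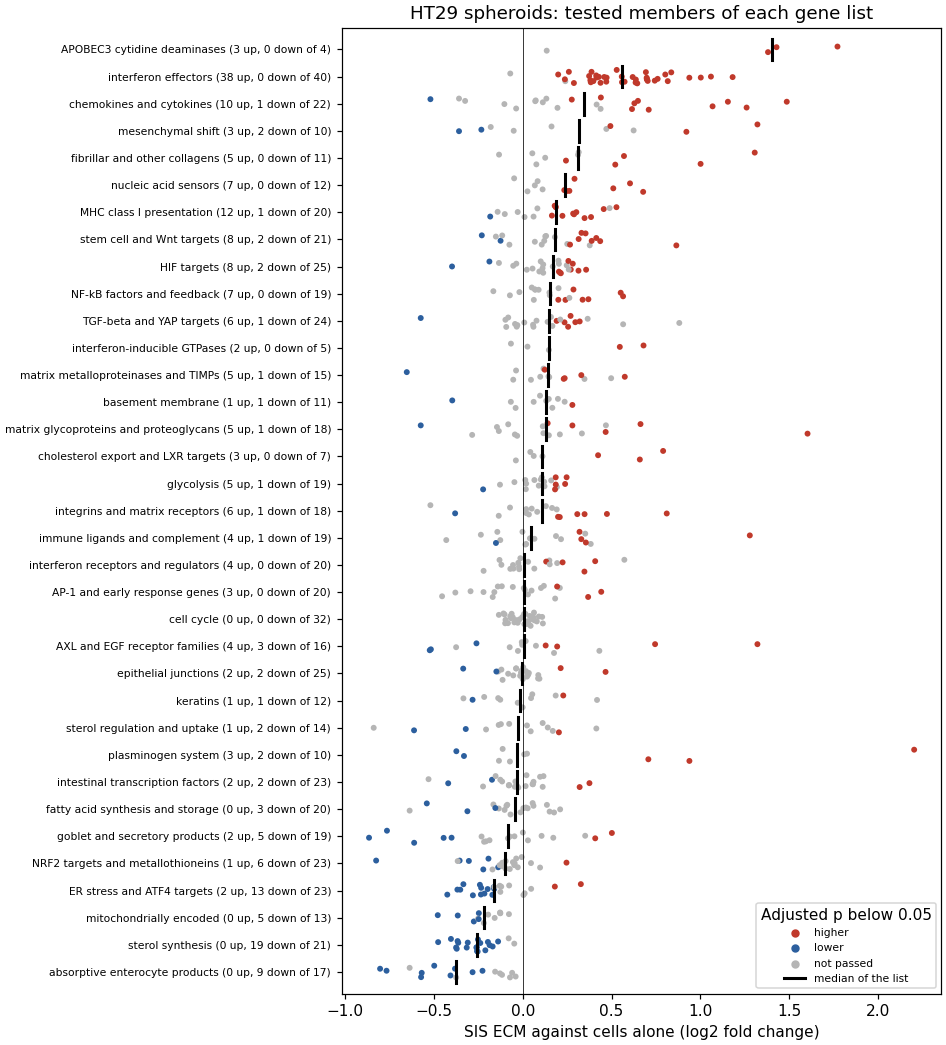
Log2 fold change of each tested member of 35 gene lists, 1 row per list ordered by its median (black bar), with members that rose in red, fell in blue and did not pass in grey. Interferon effectors sit near the top with 38 of 40 members higher and sterol synthesis near the bottom with 19 of 21 lower, while the 32 cell cycle genes cluster around 0.

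Intestinal differentiation products fell in part. Of 17 tested absorptive enterocyte genes 9 were lower (52.9%, against 5.79% of all genes tested) and none higher (median −0.38). In all 9 the groups did not overlap, against 2.74% of all genes that were lower in every SIS ECM library. CEACAM5, the carcinoembryonic antigen, ran from 26.9 through 31.2 to 32.6 CPM in cells alone and from 14.4 through 17.8 to 19.2 CPM with SIS ECM (−0.80 ± 0.07, adjusted p = 7.11e-07). CDH17, the intestinal cadherin, ran from 12.5 through 13.3 to 13.8 and from 7.81 through 9.04 to 9.89 CPM (−0.57 ± 0.06, adjusted p = 1.26e-05). KRT20, the keratin of mature colonocytes, remained abundant while falling from 421 to 477 CPM (median 440) to 327 to 400 CPM (median 364; −0.28 ± 0.05, adjusted p = 0.00124).

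The brush border myosin MYO1A (−0.77 ± 0.09), CEACAM6 (−0.57 ± 0.06) and PHGR1 (−0.50 ± 0.06) fell too, whereas CEACAM1 (−0.04 ± 0.04, adjusted p = 0.597) and MISP (−0.12 ± 0.06, adjusted p = 0.242) did not pass. Of the general epithelial markers EPCAM, the epithelial adhesion molecule, overlapped between cultures, at 542 to 567 CPM (median 544) and 527 to 569 CPM (median 539; −0.02 ± 0.04, adjusted p = 0.833), and the keratins KRT8 (−0.13 ± 0.06, adjusted p = 0.174) and KRT18 (−0.22 ± 0.07, adjusted p = 0.0613) did not pass. Over the 12 colon epithelial markers 5 fell (41.7%, against 5.79% of all genes tested) and none rose. Those that fell were CEACAM5, CDH17, KRT20, the microvillus protein VIL1 (−0.23 ± 0.05) and the colon antigen GPA33 (−0.24 ± 0.07), and the call for GPA33 was lost when 1 of 3 single libraries was left out (cells-alone library 3, SIS ECM library 2 or 6; adjusted p up to 0.0601).

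In the list of goblet and secretory products, which includes membrane mucins, 5 of 19 tested members fell (26.3%, against 5.79% of all genes tested). Another 2 rose (10.5%, against 7.75%), and log2 fold changes of the list ran from −0.867 to 0.501. Named below are the 5 changed members of smallest adjusted p, all of them falls. The median was −0.08, and 12 members did not pass. The list's level overlapped between cultures, at −0.093 to 0.109 in cells alone and −0.182 to −0.077 with SIS ECM. AGR2, a disulfide isomerase that goblet cells need to make mucin, ran from 657 through 710.4 to 776 CPM in cells alone and from 499.6 through 519 to 584 CPM with SIS ECM (−0.45 ± 0.05, adjusted p = 1.75e-05). REG4, a secreted lectin, ran from 4.76 through 5.79 to 6.80 and from 2.50 through 3.26 to 3.55 CPM (−0.87 ± 0.10, adjusted p = 2.23e-05). The groups were apart for both. The membrane mucins MUC13 (−0.40 ± 0.05) and MUC17 (−0.61 ± 0.11) and the AGR2 relative AGR3 (−0.77 ± 0.10) fell, while LYZ, the lysozyme of Paneth cells, did not pass (−0.07 ± 0.05, adjusted p = 0.367).

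Among 23 tested intestinal transcription factors 2 rose and 2 fell (8.70% each way), near the shares over all genes tested (7.75% and 5.79%). HNF4A, the nuclear receptor that drives enterocyte genes, ran from 63.4 through 76.8 to 87.9 CPM in cells alone and from 53.8 through 56.9 to 61.4 CPM with SIS ECM (−0.42 ± 0.07, adjusted p = 0.000315), with no overlap. Its relative HNF4G fell by less (−0.17 ± 0.05, adjusted p = 0.0238), and that call was lost without SIS ECM library 2 (adjusted p = 0.0506). SOX9, a crypt factor, ran from 73.2 through 90.0 to 98.2 and from 97.2 through 118 to 127 CPM (0.37 ± 0.07, adjusted p = 0.00189), and its lowest SIS ECM library lay just below the highest cells-alone library. The Notch target HES1 rose by 0.32 ± 0.04. KLF4 (0.02 ± 0.09, adjusted p = 0.939), KLF5 (0.12 ± 0.05, adjusted p = 0.12) and CDX2 (−0.03 ± 0.15, adjusted p = 0.937) did not pass. Leaving out 1 library at a time gave 1 to 5 factors that fell.

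GRHL3, a grainyhead factor of epithelial barriers, is outside the list. It had the largest fall among genes whose log2 CPM averaged 2 or more and whose groups did not overlap. It ran from 9.38 through 12.3 to 13.7 CPM in cells alone and from 5.22 through 5.64 to 6.61 CPM with SIS ECM (−1.02 ± 0.09, adjusted p = 1.02e-06). No SIS ECM library reached the level of any cells-alone library. SULT1A4 had the next largest fall (−0.90 ± 0.11), but SULT1A3 is a near-identical copy, so its value is uncertain.

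Crypt and Wnt genes rose in 8 of 21 tested members (38.1%, against 7.75% of all genes tested) and fell in 2 (median 0.18). Log2 fold changes of the list ran from −0.232 to 0.865, and the 2 that fell are not named here. Between cultures the list's level overlapped, at −0.108 to 0.09 in cells alone and 0.069 to 0.25 with SIS ECM. CCND1, the G1 cyclin and Wnt target, stood at 85.6 to 107 CPM (median 101) in cells alone and at 118 to 136 CPM (median 125) with SIS ECM (0.35 ± 0.06, adjusted p = 0.000342). ASCL2, a factor of crypt base stem cells, ran from 7.07 through 7.33 to 8.96 and from 9.36 through 10.4 to 11.02 CPM (0.44 ± 0.07, adjusted p = 0.000391). Both had groups apart. LGR5, the R-spondin receptor of the same cells, overlapped in 1 library, at 10.8 to 13.7 CPM (median 12.2) and 13.4 to 17.3 CPM (median 14.8), and rose by 0.33 ± 0.07 (adjusted p = 0.00504).

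TNFRSF19 (0.86 ± 0.12), the Eph receptor EPHB2 (0.39 ± 0.07) and the feedback inhibitor AXIN2 (0.31 ± 0.06) rose with them, and the ubiquitin ligase gene RNF43 (−0.08 ± 0.05, adjusted p = 0.304) and MYC (0.13 ± 0.05, adjusted p = 0.0887) did not pass. Epithelial junction genes changed in 4 of 25 tested (16.0%), near the 13.5% of all genes tested. Of these 2 rose and 2 fell, and 1 to 3 fell when 1 library was left out (1 on omission of library 1, 3 or 4 of cells alone or of SIS ECM library 1, 5 or 6). CLDN2, the pore-forming claudin of crypts, rose from 83.0 to 91.1 CPM (median 87.1) to 112 to 130 CPM (median 121; 0.47 ± 0.04, adjusted p = 1.27e-06), with no overlap, and the desmosomal cadherin DSC2 rose by 0.21 ± 0.04. CLDN15, a second pore-forming claudin, fell (−0.34 ± 0.09), and CLDN4 did not pass (−0.08 ± 0.06, adjusted p = 0.352).

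Proliferation genes gave no call. Of 32 tested cell cycle genes none rose or fell in edgeR's test, DESeq2 also called 0 and 1 had an unadjusted p below 0.05. The median was 0.01, and the proliferation marker MKI67 had a log2 fold change of −0.06 ± 0.05 (adjusted p = 0.461) and TOP2A, the mitotic topoisomerase, 0.01 ± 0.04 (adjusted p = 0.948). The list's level was split within the SIS ECM group: 0.09 and 0.10 in libraries 1 and 4, −0.10, −0.06 and −0.06 in libraries 2, 3 and 5, and 0.00 in library 6, against −0.03 to 0.07 in cells alone. Without libraries 1 and 4, 8 members were lower, where falls over all genes went from 880 to 1799. Those libraries were the highest of the SIS ECM group for this list and were chosen after the data were seen. From that count nothing is read beyond that the 0 was not kept.

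Mitochondrially encoded transcripts showed the same split. MT-ND4, a complex I subunit, ran from 5375 through 5930.0 to 6290.0 CPM in cells alone and from 3850.0 through 4336 to 5448 CPM with SIS ECM (−0.37 ± 0.08, adjusted p = 0.006), where the highest SIS ECM values were those of libraries 1 and 4. Of 13 members 5 fell (38.5%, against 5.79% of all genes tested) and none rose (median −0.22). The count was 3 on omission of library 1, 3 or 4 of cells alone or of SIS ECM library 2, 3, 5 or 6, and 8 without SIS ECM library 1 or 4. All 13 fell without both, but those libraries were singled out by their share of these transcripts, so nothing is read from that count. MT-CO1, a cytochrome oxidase subunit, did not pass over all libraries (−0.08 ± 0.08, adjusted p = 0.585).

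Stress genes of the endoplasmic reticulum and amino acid response fell in 13 of 23 tested members (56.5%) and rose in 2 (median −0.16). Over all genes tested 5.79% fell. In 4 of the 23 every SIS ECM library lay below every cells-alone library, against 2.74% of all genes. The list's level overlapped between cultures, at −0.133 to 0.086 in cells alone and −0.179 to −0.125 with SIS ECM. HSPA5, the chaperone BiP, ran from 973 through 1102 to 1159 CPM in cells alone and from 870.4 through 891 to 922 CPM with SIS ECM (−0.28 ± 0.05, adjusted p = 0.000488), without overlap. The secreted chaperone CRELD2 (−0.43 ± 0.05), the degradation factor HERPUD1 (−0.35 ± 0.06) and the chaperone HSP90B1 (−0.24 ± 0.04) fell. XBP1 (−0.13 ± 0.05, adjusted p = 0.105) and DNAJC3 (−0.08 ± 0.04, adjusted p = 0.204) did not pass. ATF4, the factor of the amino acid response, fell by 0.16 ± 0.04 (adjusted p = 0.0178), a call lost without cells-alone library 4 (adjusted p = 0.051).

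Among 23 tested NRF2 targets and metallothioneins 6 fell (26.1%, against 5.79% of all genes tested) and 1 rose (median −0.10). AKR1B10, an aldo-keto reductase, fell from 28.2 to 33.7 CPM (median 30.3) to 15.1 to 20.6 CPM (median 16.9; −0.83 ± 0.08, adjusted p = 1.41e-06), with the groups apart. The quinone reductase NQO1 (−0.22 ± 0.06) and ferritin light chain FTL (−0.30 ± 0.08) fell and the zinc exporter SLC30A1 rose (0.25 ± 0.06). The level of this list was −0.03 and −0.05 in SIS ECM libraries 1 and 4 and −0.10 to −0.23 in the other 4, so it too lay closest to cells alone in the libraries with the higher mitochondrial share, whose part in it was not tested. Without libraries 1 and 4, 9 members fell, where falls over all genes went from 880 to 1799.

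Of 25 tested HIF targets 8 rose (32.0%, against 7.75% of all genes tested) and 2 fell, with a median of 0.17. The oxygen-sensing hydroxylase EGLN1 (0.27 ± 0.05), the mitophagy receptor BNIP3L (0.31 ± 0.06) and the oxidase ERO1A (0.26 ± 0.06) rose, and the carbonic anhydrase CA12 fell (−0.40 ± 0.05). VEGFA (−0.04 ± 0.08, adjusted p = 0.811) and NDRG1 (0.05 ± 0.10, adjusted p = 0.767) did not pass. Of 19 tested glycolysis genes 5 rose (26.3%) and 1 fell (median 0.11), but leaving out 1 library gave 2 to 7 that rose and 0 to 1 that fell. The count of rises was 2 or 3 on omission of library 1, 3, 5 or 6 of cells alone or of SIS ECM library 2, 3, 5 or 6. PKM, the pyruvate kinase, ran from 2140.0 through 2437 to 2557 CPM in cells alone and from 2673 through 2863 to 2998 CPM with SIS ECM (0.25 ± 0.05, adjusted p = 0.00287), without overlap, while GAPDH did not pass (0.02 ± 0.07, adjusted p = 0.903).

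Of 20 tested AP-1 and early response genes 3 rose (15%, against 7.75% of all genes tested), led by PHLDA1 (0.44 ± 0.04). The scatter of FOS (178 ± 54.0 against 172 ± 53.8 CPM, mean ± SD, n = 6) was far larger than its difference.

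**Figure D4:**
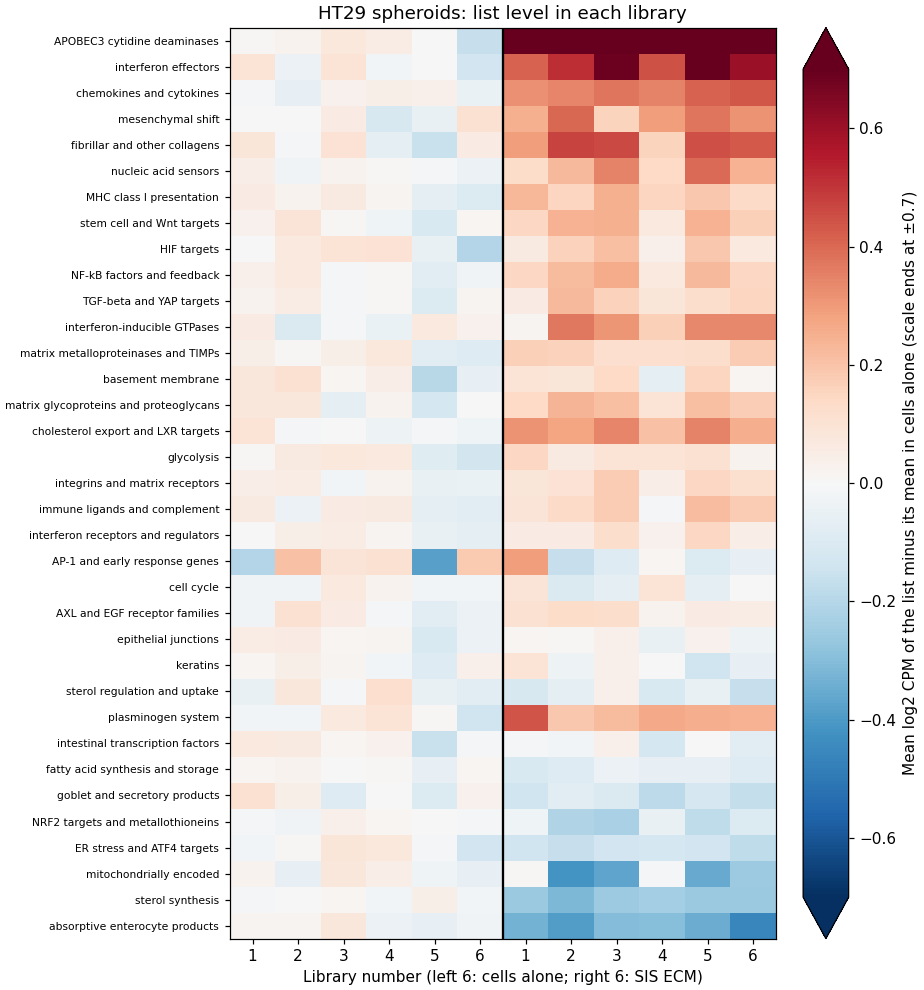
Mean log2 CPM of each list's tested members relative to its mean in cells alone, per library, with red above and blue below, the colour scale ending at ±0.7 and the vertical line separating the 6 cells-alone libraries from the 6 SIS ECM libraries. Interferon effectors (0.41 to 0.70) and sterol synthesis (−0.31 to −0.24) hold in each SIS ECM library, while the mitochondrially encoded genes are near 0 in SIS ECM libraries 1 and 4 and between −0.42 and −0.25 in the other 4.

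The response of HT29 was set against the mean response of the mouse lines CT26 and MC38, over 12272 tested genes that carry one symbol in both species apart from capitals, a stand-in for orthology. The difference passed for 668 genes (5.44%), 317 with a higher and 351 with a lower response in HT29. With a term for libraries 1 to 3 against 4 to 6 in each line 1796 genes passed, and blocking on library number within each line left 1015. The 11 genes named below passed in each of these and the other alternatives run.

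Of the named genes with a higher response in HT29, FN1 had log2 fold changes of 1.60 in HT29, 0.21 in CT26 and −0.22 in MC38, a difference of 1.61 ± 0.19 (adjusted p = 5.64e-07). AXL had values of 1.32, −0.23 and −0.19 (difference 1.53 ± 0.11, adjusted p = 1.46e-12). Both genes had values of opposite sign in HT29 and in MC38.

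LOXL4, a crosslinker of collagen and elastin, had values of 0.79, −0.26 and −0.84 (difference 1.34 ± 0.13, adjusted p = 3.14e-09), and CAV1 of 0.92, −0.32 and −0.39 (difference 1.28 ± 0.14, adjusted p = 1.70e-07). KLHL5, a kelch-domain protein, ran from 2.80 through 3.23 to 3.65 CPM in HT29 cells alone and from 5.84 through 6.84 to 7.37 CPM with SIS ECM, with groups apart. Its log2 fold change was 1.06 in HT29, −0.08 in CT26 and −0.16 in MC38 (difference 1.18 ± 0.08, adjusted p = 9.96e-13).

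In the other direction, AKR1B10 fell in HT29 (−0.83) with values of 0.08 in CT26 and 0.11 in MC38 (difference −0.92 ± 0.11, adjusted p = 2.84e-07). DGKA, a diacylglycerol kinase, fell in HT29 (−0.40) and had values of 1.12 in CT26 and −0.01 in MC38 (difference −0.95 ± 0.12). STX3, an apical membrane fusion protein, fell in HT29 (−0.17) and had values of 0.20 and 0.60 (difference −0.57 ± 0.06), and the Mediator subunit MED10 had values of −0.17, 0.71 and 0.09 (difference −0.56 ± 0.07). BOK, an apoptosis gene of the BCL2 family, had positive values in all lines, 0.19 in HT29, 1.30 in CT26 and 0.76 in MC38 (difference −0.84 ± 0.08), and so had FAM102A (0.24, 1.56 and 1.00, difference −1.04 ± 0.10). The HT29 calls were lost when any of 4 single libraries was left out for BOK, any of 9 for FAM102A (adjusted p up to 0.0923) and either of 2 for MED10, whereas the differences passed each time.

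**Figure D5:**
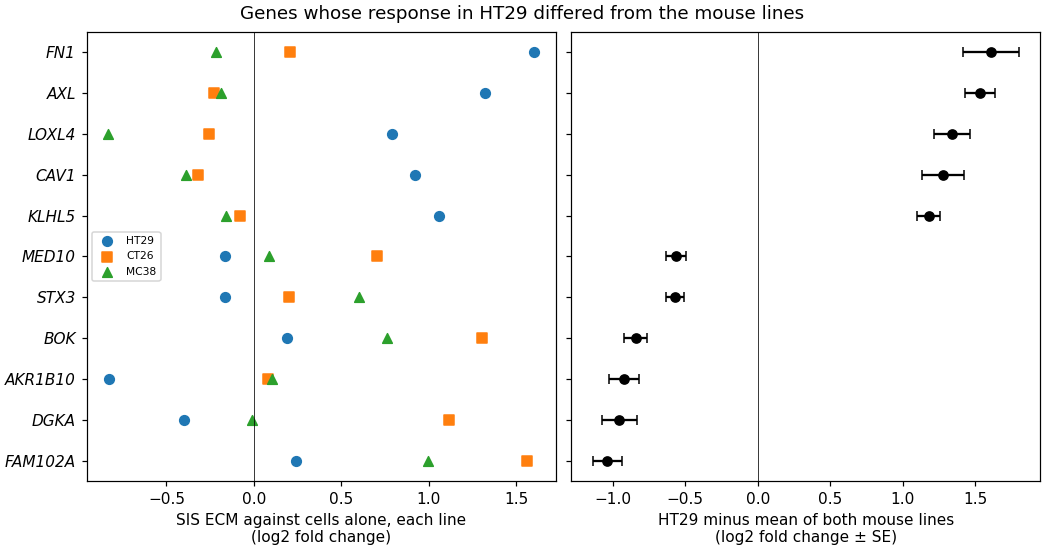
Left, log2 fold change of SIS ECM against cells alone in HT29, CT26 and MC38 for 11 genes; right, the HT29 value minus the mean of both mouse lines with its SE. FN1, AXL, LOXL4, CAV1 and KLHL5 have differences of 1.18 to 1.61, and the other 6 of −1.04 to −0.56.

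The authors' deposited table of the same comparison holds 13522 genes, of which 1120 are higher and 1046 lower at an adjusted p below 0.05. Of the 2058 genes called here 1994 are in the authors' deposited table, 1994 with the same sign and 1910 below 0.05 there. In the authors' deposited table of Hallmark gene sets, the interferon alpha response had the highest normalised enrichment score (3.21), ahead of the interferon gamma response (3.13).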

How the data were processed

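Each library was made from polyadenylated RNA of 10 pooled spheroids after 7 days and sequenced as stranded, paired-end reads, per the labels' protocols. The authors deposited expected counts per gene, estimated and not normalized, and their tools, per the submitters' processing notes, included RSEM 1.3.1, STAR 2.7.0f, cutadapt 1.18 and limma, with the builds hg38 and mm10. The filters and the strand setting of the counting are not given in the sources used here. Values were rounded to whole counts (3811 to 4113 values per library were not whole), and totals were 25515239 to 37001506 counts.

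Of 58870 genes in the table, 15207 passed filterByExpr at a minimum count of 10. TMM factors were 0.972 to 1.032. The test was edgeR 4.0.16's two-sided quasi-likelihood test in R 4.3.3 with Benjamini-Hochberg adjustment over all genes tested and a threshold of 0.05, on the 6 SIS ECM and 6 cells-alone libraries. CPM values of single genes are TMM-scaled, whereas the summed CPM of the cell type markers used library totals without TMM factors. Both compare libraries, not genes, since they are not per length. A list's level used log2 CPM with a prior count of 2. The mouse lines entered through 1 fit of 6 groups and 34 libraries. The code was tested on simulated data. The members and gene lists were chosen with earlier results of these data known, and lists are described by counts and medians only.

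Named genes were the 12 largest changes per direction among changed genes whose groups did not overlap and whose log2 CPM averaged 2 or more, up to 5 changed and 2 abundant unchanged members per list, a set of regulators, and the 6 smallest adjusted p per direction of the difference from mouse. Alternatives were DESeq2 1.42.0, limma-voom (limma 3.58.1), RLE factors, other filters, a replicate block, a term for libraries 1 to 3 against 4 to 6 and leaving out libraries. The authors' deposited comparison holds log2 fold changes, p-values and a t statistic score per gene, and their deposited gene set table holds an enrichment score and p-values, per the file headers. In all 34 further columns of per-sample values were not used here, and human coordinates and sequences were not used here. Some genes that the rule names, and 1 list, are not reported here.

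Same-numbered libraries did not deviate together (correlations −0.096 to 0.065 over 6 pairs), so numbers were not taken as pairs. Replicates differed beyond sampling noise in all 30 pairs (chi-square per degree of freedom 2.38 to 28.5).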

Additional observations from a re-analysis of the deposited data

Results flagged for a closer look

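A library stood far from the other 5 of its group in 14 of 190 groups of values examined, and chance flags about 1 in 20. Cells-alone library 6 was low for IFI6, an antiviral protein (98.02 CPM against 122.4 to 135.7), for the class I heavy chain HLA-B (36.0 CPM against 42.74 to 45.43) and for the level of the APOBEC3 list (−0.163 against 0.002 to 0.074 on the log2 scale). Cells-alone library 2 was high for COL16A1 (48.16 CPM against 39.92 to 42.4). Cells-alone library 3 was low for the cholesterol exporter ABCA1 (3.462 CPM against 4.504 to 4.886) and high for EPCAM (567.3 CPM against 541.6 to 549.1). Cells-alone library 1 was high for the level of cholesterol export genes (0.093 against −0.035 to −0.004). Cells-alone library 5 was low for fatty acid genes (−0.06 against 0.003 to 0.022) and for intestinal transcription factors (−0.157 against −0.012 to 0.068).

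Among SIS ECM libraries, library 4 was nearest to cells alone for the activator PLAU (5.818 CPM against 7.107 to 7.857) and for AGR2 (584.1 CPM against 499.6 to 528.4). SIS ECM library 1 was highest for the level of the APOBEC3 list (1.35 against 1.108 to 1.173) and of the plasminogen system (0.439 against 0.186 to 0.267), although it lay lowest for the interferon effectors. SIS ECM library 2 was lowest for sterol synthesis (−0.313 against −0.262 to −0.236).

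The response in HT29 differed from the mean response of both mouse lines in edgeR's contrast for 11 named genes. On the log2 scale it was higher for KLHL5 (by 1.18), AXL (1.53), LOXL4 (1.34), CAV1 (1.28) and FN1 (1.61). The difference was negative for BOK (−0.84), FAM102A (−1.04), STX3 (−0.57), AKR1B10 (−0.92), MED10 (−0.56) and DGKA (−0.95).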

How the results depend on the processing

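The alternatives were DESeq2, RLE factors, limma-voom, no filter, a minimum count of 50, a replicate block, a term for libraries 1 to 3 against 4 to 6, each library left out in turn and, chosen after seeing the data, leaving out SIS ECM libraries 1 and 4 or the mitochondrially encoded genes. No gene called among the 2058 had the opposite sign in any of them. Without SIS ECM libraries 1 and 4, 3617 genes changed (1818 higher, 1799 lower), of which 1895 were among the 2058. In that setting 2 members of MHC class I presentation, 4 of the plasminogen system and 8 of the cell cycle list were lower. The other fits gave 1843 to 2484 changed genes. With the replicate block, although numbers did not pair the libraries, 1880 genes changed and 1757 were shared, and the difference from the mouse lines passed for 1015 genes. With the term for libraries 1 to 3 against 4 to 6 that difference passed for 1796 genes and 4 intestinal transcription factors were lower. DESeq2 called 4 lower intestinal transcription factors and 2 lower members of MHC class I presentation. Leaving out 1 library at a time gave 1445 to 2464 changed genes, 582 (without cells-alone library 3) to 1073 of them lower. The same omissions gave 1 to 2 lower members of MHC class I presentation (2 without cells-alone library 6), 1 to 5 lower intestinal transcription factors (1 without SIS ECM library 2, 5 without cells-alone library 5) and 0 to 1 lower cell cycle gene (1 without SIS ECM library 4). The cause of these moves was not tested. Of 255 named genes 170 changed, and 29 of these lost the call in at least 1 omission (largest adjusted p per gene 0.0506 to 0.117). Genes called at low levels had larger changes: the median absolute log2 fold change of changed genes was 0.65 among the 3802 genes of lowest expression and 0.21 among the 3802 of highest. Only genes that passed entered these medians, so they do not measure precision.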

Other observations

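These gene families were chosen after their values were seen and are given as values. Over all genes tested 7.75% rose and 5.79% fell. Of 12 tested PARP genes, ADP-ribosyltransferases that include antiviral members, 5 rose (41.7%) and none fell. Those that rose were PARP9 (log2 fold change 0.47), PARP14 (0.41), PARP10 (0.36), PARP12 (0.35) and PARP11 (0.23). PARP9 and PARP14 are also in the list of interferon effectors. Among 15 tested genes of Notch receptors, ligands, modifiers and targets 5 transcripts rose (33.3%) and none fell (median 0.19). They were the ligand JAG2 (0.51), the targets HES4 (0.47) and HES1 (0.32), HES6 (0.45) and the glycosyltransferase LFNG (0.32). HES1 is also among the intestinal transcription factors. Of 14 tested Eph receptors and ephrins 5 rose (35.7%) and 2 fell (14.3%). Of 18 tested tRNA synthetases 6 fell (33.3%) and 1 rose (5.56%), with a median of −0.12. Of 78 tested mitochondrial ribosomal protein genes, which are encoded in the nucleus, 8 fell and none rose (median −0.07). The share that fell was 10.3%, against 5.79% of all genes tested.

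PAX4 and NEUROG3, genes of enteroendocrine progenitors, were chosen after their values were seen and were scarce in both cultures. Other genes of these cells are not given, so nothing is read about the cell type. PAX4 had a median of 0.142 CPM in cells alone and 0.622 with SIS ECM (log2 fold change 1.80 ± 0.30, SE; adjusted p = 0.000534), and NEUROG3, the factor that commits cells to the endocrine fate, rose by 1.32 ± 0.27 (adjusted p = 0.00296). The most negative log2 fold change of all genes was that of SLC2A3P1 (−5.12), a pseudogene whose reads could belong to its parent gene, and its groups overlapped (0 to 6.43 CPM in cells alone and 0 to 0.449 with SIS ECM).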
